A study of Mus musculus with 4 samples.

Results

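The genes described here mark the renal stroma, the mesenchyme between the nephrons, together with its derivatives, the mesangium of the glomerulus, pericytes, vascular and ureteric smooth muscle and interstitial fibroblasts. They were given as a list of 31 symbols and taken by name from the deposited tables. Of these, 30 had a row of their own in every table, out of 22662 genes compared, and Pdgfra was present only in a joint row with the microRNA gene Mir7025. Mouse kidneys at E18.5 from a mixed strain background were profiled by RNA sequencing. The 2 mutant kidney libraries carried 2 conditional alleles of Hnf4a and the Cre driver (Hnf4a c/c ; Six2GFPcre). The 2 control libraries carried 1 conditional allele and the same driver (Hnf4a c/+ ; Six2GFPcre), so they can lose 1 copy of Hnf4a in Cre-expressing cells and are not wild type. Six2GFPcre is active in nephron progenitors, whose descendants form the nephron epithelium. The labels do not say whether each library came from 1 animal or from a pool, so p-values measure only the spread between these libraries.

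Renal stroma descends largely from a progenitor that expresses the forkhead factor Foxd1 and lies around the caps of Six2-expressing nephron progenitors. These cells give rise to cortical and medullary interstitial cells, to the mesangial cells and pericytes that support capillaries, and to much of the vascular smooth muscle. The stroma also supplies signals to its neighbours, among them retinoic acid, and lays down the matrix of the organ. Smooth muscle of the ureter and renal pelvis has another origin, in mesenchyme marked by the T-box factor Tbx18. Hnf4a, a nuclear receptor, acts in the proximal tubule.

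Each table gave FPKM, that is fragments per kilobase of transcript scaled to the mapped fragments of the library, and no read totals. Between 13552 and 13646 named genes per library reached 1 FPKM. The absolute depth is therefore unknown, and very low values were stepped as if mutant replicate 2 were slightly deeper than the other libraries. Across the 13287 genes tested, pairwise correlations of log2(FPKM + 1) between libraries lay between 0.935 and 0.954. Replicate 1 of each group carried the Y-linked transcript Ddx3y (26.4 FPKM in mutant and 27.7 in control), and replicate 2 of each group carried Xist (74.0 in mutant and 81.0 in control). The libraries of a group therefore did not come from the same single animal, and the replicate number coincides with sex in both groups. Hnf4a itself was at 87.1 and 78.5 FPKM in mutant libraries and at 89.3 and 84.6 in control libraries, overlapping values that cover the whole gene and so do not check the deletion of a part of it. Proximal tubule markers were chosen with earlier results of these data known. All 8 had lower values in both mutant libraries than in either control library, beside 17.1% of all genes. Their median log2 change was -1.40, and 1 of the 8, Vil1, had a limma adjusted p under 0.05. The villin gene Vil1 fell to 6.93 and 6.05 FPKM in mutant libraries, against 26.9 and 25.9 in control libraries (limma adjusted p = 0.036). Without control replicate 1, and likewise without control replicate 2, limma called 0 genes, Vil1 included, with 1014 and 2295 genes at an unadjusted p under 0.05.

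No stromal gene passed the test between mutant and control, and all but Tbx18 had a mean of more than 10 FPKM. The 3 defining markers of the set were each at 30.4 FPKM or more in every library. Foxd1, the factor of stromal progenitors, was at 32.8 and 31.9 FPKM in mutant libraries and at 38.4 and 36.4 FPKM in control libraries. Pdgfrb, the receptor that pericytes and mesangial cells need for PDGF signals, was at 33.9 and 30.4 FPKM in mutant libraries and at 37.3 and 32.5 FPKM in control libraries. Penk, which encodes the precursor of enkephalin peptides and marks part of the medullary stroma, had the highest mean of the set, with 136 and 135 FPKM in mutant libraries and 153 and 152 FPKM in control libraries. Foxd1 and Penk were thus lower in both mutant libraries, whereas Pdgfrb overlapped between the groups. The change was tested with limma on log2(FPKM + 1), adjusted by Benjamini-Hochberg over all 13287 genes, with a threshold of 0.05. The adjusted p was 0.71 for Foxd1 (log2 change -0.20, SE 0.08), 0.71 for Penk (-0.17, SE 0.06) and 0.79 for Pdgfrb (-0.12, SE 0.11). Because the RNA came from kidneys in bulk, fewer cells of a type and less RNA per cell cannot be told apart.

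All 30 genes with their own row passed the filter of at least 1 FPKM in at least 2 libraries. By limma 0 of the 30 passed the adjusted threshold, beside 0.158% of all genes tested (0.113% lower and 0.0452% higher in mutant). At an unadjusted p under 0.05 there were 2, beside 7.24% of all genes. These were Ntn1, lower in mutant beside 4.57% of all genes, and Lum, higher in mutant beside 2.67%. The groups did not overlap for 10 members, beside 39.8% of all genes. In 5 of them both mutant values lay below both control values, beside 17.1% of all genes, and in 5 they lay above, beside 22.7%. These shares of the members are near or below the background. The log2 changes ran between -0.38 and 0.68 with a median of -0.07, against a median of 0.02 over all genes. The median size of change, disregarding sign, was 0.12 for the members and 0.12 for all genes. In 23 of the 30 the change was smaller than 0.2 on the log2 scale, beside 68.5% of all genes. The 95% interval of the change lay within 1 on the log2 scale for 27 of 30 members, beside 86% of all genes. The exceptions were Meis2, Tbx18 and Lum. With 2 libraries a group, a gene that missed the threshold is not shown to be unchanged. Summed over the 30 genes, the level was 1465 and 1351 FPKM in mutant libraries and 1449 and 1431 FPKM in control libraries.

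**Figure D1:**
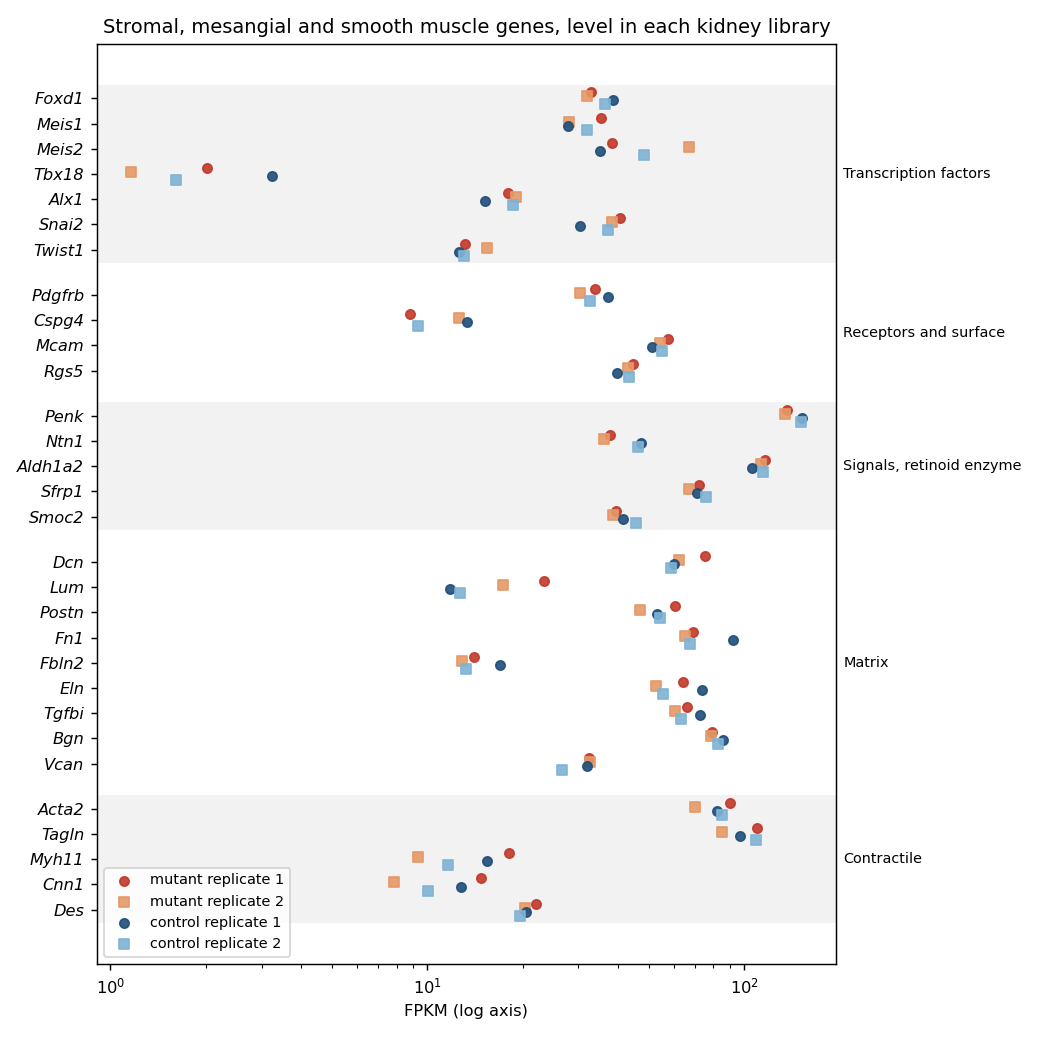
FPKM (log axis) of the 30 genes in each library, grouped by role, with mutant libraries in red and orange, control libraries in blue, circles for replicate 1 and squares for replicate 2. Most genes have all 4 points close together, and Tbx18, Meis2, Lum, Myh11 and Cnn1 are spread most widely.

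Transcription factors of the stroma showed no common direction, with 5 of 7 changes positive and 2 negative, a median of 0.13 and 0 past the threshold. Meis1, a homeobox cofactor found throughout renal stroma, was at 35.3 and 27.9 FPKM in mutant libraries and at 27.7 and 31.9 FPKM in control libraries, so the groups overlapped. Its relative Meis2 was at 38.1 and 67.2 FPKM in mutant libraries and at 35.2 and 48.3 FPKM in control libraries. For Meis2 it was replicate 2 that was high in each group, and there the assembled locus on mm9 chromosome 2 ended at 115893233 (mutant) and 115893244 (control), against 115890794 in replicate 1 of both groups. The replicate number also coincides with sex in both groups. Whether the longer locus or sex has a part in the higher value was not tested.

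Tbx18, the marker of ureteric mesenchyme, was the least abundant member, at 2.01 and 1.16 FPKM in mutant libraries and at 3.23 and 1.61 FPKM in control libraries. Its log2 change of -0.38 (SE 0.33, adjusted p = 0.78) was smaller than the difference between the control libraries, and it ran from -0.73 to -0.04 when each library was left out in turn, the weakest value being the one without control replicate 1. Snai2, a zinc finger repressor of epithelial genes, was at 40.6 and 38.4 FPKM in mutant libraries and at 30.4 and 37.1 FPKM in control libraries. Twist1, a helix-loop-helix factor of mesenchyme, was at 13.1 and 15.4 FPKM in mutant libraries and at 12.6 and 13.05 FPKM in control libraries. Both had higher values in the mutant libraries by margins within the spread between replicates (adjusted p = 0.76 and 0.79). Alx1, a homeobox factor of mesenchyme, was at 18.01 and 18.99 FPKM in mutant libraries and at 15.2 and 18.6 FPKM in control libraries, with overlapping groups.

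Receptors and surface proteins of pericytes and mesangium gave 2 positive and 2 negative differences. All 4 were smaller than 0.2 on the log2 scale, beside 68.5% of all genes. All 4 genes had overlapping groups, whereas the groups did not overlap for 39.8% of all genes tested. Mcam (CD146), an adhesion molecule of pericytes and endothelium, was at 57.6 and 54.3 FPKM in mutant libraries and at 51.2 and 55.2 FPKM in control libraries. Rgs5, a brake on G protein signals in pericytes, was at 44.5 and 43.1 FPKM in mutant libraries and at 39.7 and 43.2 FPKM in control libraries. For both genes the groups overlapped and the 95% interval of the log2 change was -0.14 to 0.29. Cspg4 (NG2), a pericyte proteoglycan, was at 8.84 and 12.6 FPKM in mutant libraries and at 13.4 and 9.38 FPKM in control libraries. In mutant replicate 2 the Cspg4 locus was extended on mm9 chromosome 9 to 56765766, against 56747677 in the other libraries, and overlapped Snx33, so reads may be split between these genes. The joint row of Pdgfra, the PDGF receptor of interstitial fibroblasts, with Mir7025 held 34.4 and 36.6 FPKM in mutant libraries and 40.6 and 36.8 FPKM in control libraries (log2 change -0.12, SE 0.09, adjusted p = 0.77).

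Among the secreted signals and the retinoid enzyme, 4 of 5 changes were negative and 3 genes, Penk, Ntn1 and Smoc2, had both mutant values below both control values, beside 17.1% of all genes, with a median of -0.15 and 0 past the threshold. Ntn1 encodes netrin 1, a secreted guidance cue made by stromal progenitors. It was at 37.7 and 36.0 FPKM in mutant libraries and at 47.3 and 46.3 FPKM in control libraries, so the libraries of each group lay close together and the groups apart. The log2 change of Ntn1 was -0.34 (SE 0.07, 95% interval -0.53 to -0.14), with an unadjusted p of 0.0081 and an adjusted p of 0.34. In the intervals that the authors deposited for each library, the highest upper bound of Ntn1 in a mutant library was 40.1 FPKM and the lowest lower bound in a control library was 43.7 FPKM. Each such interval describes 1 library and does not measure the spread between libraries. Some miss their own value, as for Acta2 in mutant replicate 1 (90.44 FPKM, upper bound 90.32). The Ntn1 locus on mm9 chromosome 11 ran from 68022866 to 68200328 in both mutant libraries and in control replicate 2, and to 68214373 in control replicate 1.

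Aldh1a2, the enzyme that makes retinoic acid in the stroma, was the second most abundant member. It was at 116 and 113 FPKM in mutant libraries and at 106 and 115 FPKM in control libraries, with overlapping groups and a 95% interval of the log2 change from -0.15 to 0.26. Sfrp1, a secreted antagonist of Wnt ligands, was at 71.9 and 66.8 FPKM in mutant libraries and at 71.0 and 75.6 FPKM in control libraries. Smoc2, a matricellular calcium-binding protein, was at 39.4 and 38.7 FPKM in mutant libraries and at 41.6 and 45.5 FPKM in control libraries (adjusted p = 0.76).

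Matrix genes split in direction, with 3 of 9 changes positive, 6 negative, a median of -0.10 and 0 past the threshold. The largest change of the whole set was that of Lum, which encodes lumican, a small leucine-rich proteoglycan that binds collagen fibrils. Lum was at 23.3 and 17.4 FPKM in mutant libraries and at 11.8 and 12.7 FPKM in control libraries. Both mutant values were above both control values, by 0.68 on the log2 scale (SE 0.17, 95% interval 0.22 to 1.14), with an unadjusted p of 0.014 and an adjusted p of 0.45. The deposited intervals touched between groups, since the lower bound of Lum in mutant replicate 2 was 14.1 FPKM and the upper bound in control replicate 2 was 14.9 FPKM. Its locus was the same in all 4 tables (mm9 chr10:97028135-97035337). The neighbouring gene Dcn (mm9 chr10:96942134-96980796) encodes decorin, another leucine-rich proteoglycan, and was at 75.2 and 62.1 FPKM in mutant libraries and at 60.0 and 58.8 FPKM in control libraries. Dcn thus had higher values in the mutant libraries too, by 0.20 on the log2 scale (SE 0.11, adjusted p = 0.76).

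For the other matrix genes the 95% intervals of the change all included 0. Bgn, which encodes biglycan and had the highest mean level of the matrix genes, was at 79.1 and 78.3 FPKM in mutant libraries and at 85.9 and 82.8 FPKM in control libraries (log2 change -0.10, SE 0.07, adjusted p = 0.76). Fn1, the gene of fibronectin, was at 69.2 and 65.0 FPKM in mutant libraries and at 92.3 and 67.3 FPKM in control libraries. Control replicate 1 stood above the other 3 libraries for Fn1, and it was also the highest library for Eln, Fbln2, Tgfbi and Bgn. Eln, the gene of elastin, was at 64.3 and 52.6 FPKM in mutant libraries and at 73.7 and 55.6 FPKM in control libraries. The deposited interval of Eln in control replicate 1 ran from 0 to 29796.5 FPKM, so that value is undetermined. Tgfbi, a matrix protein induced by TGF-beta, was at 65.8 and 60.4 FPKM in mutant libraries and at 72.8 and 63.1 FPKM in control libraries. Over all members, control replicate 1 was the highest library for 11 of 30 and mutant replicate 1 for 13 of 30, beside 27.9% and 20.98% of all genes tested. Fbln2 (fibulin 2), Postn (periostin) and Vcan (versican) had log2 changes of -0.14, -0.01 and 0.15.

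**Figure D2:**
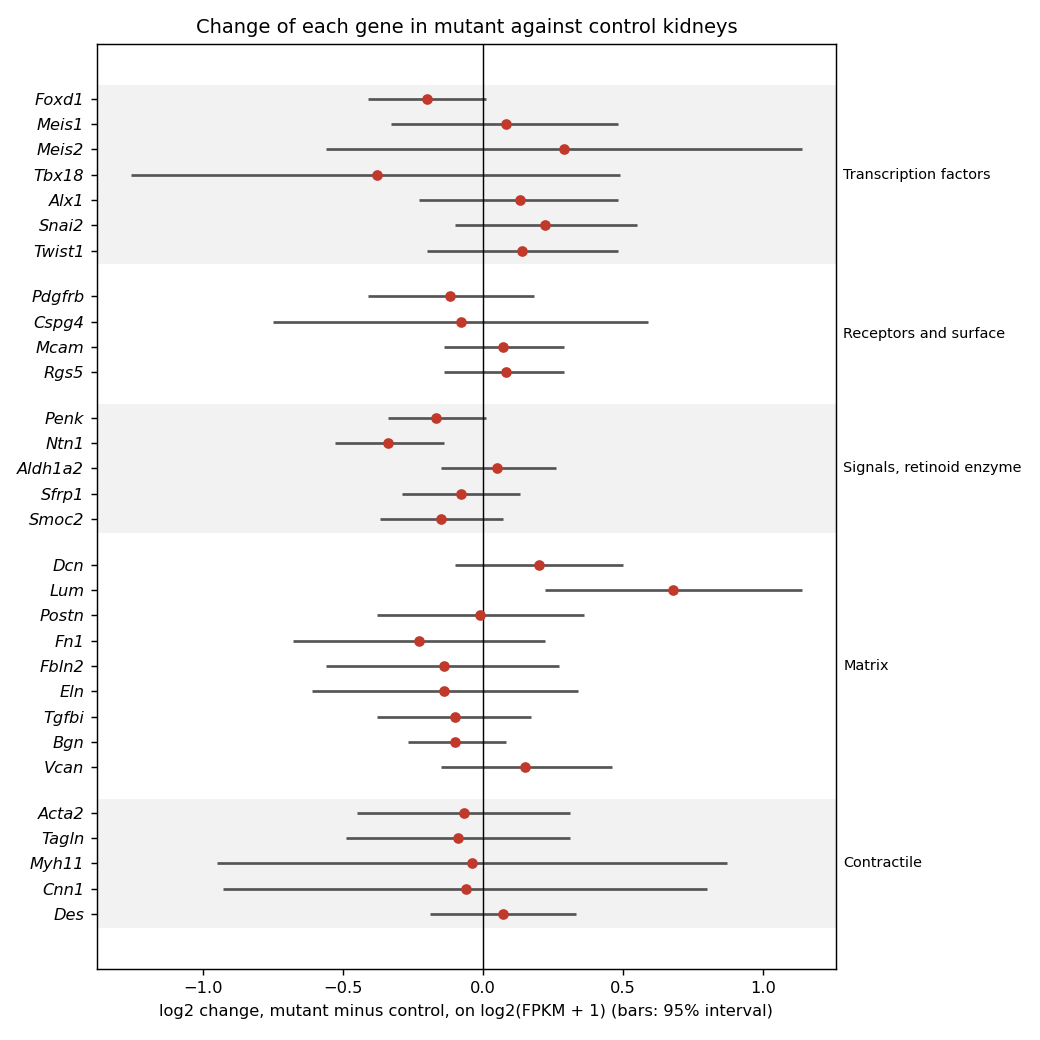
Log2 change of each gene, mutant minus control, on the log2(FPKM + 1) scale, with bars for the 95% interval from limma. The intervals of Ntn1 (-0.53 to -0.14) and Lum (0.22 to 1.14) leave out 0, and neither gene passed after adjustment over all genes.

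All 5 contractile genes of smooth muscle had overlapping groups, whereas the groups did not overlap for 39.8% of all genes tested. Their log2 differences between genotypes lay between -0.09 and 0.07. Single libraries of a group lay further apart than that. Acta2, smooth muscle alpha-actin, was at 90.4 and 69.9 FPKM in mutant libraries and at 81.9 and 85.2 FPKM in control libraries. Tagln (SM22), an actin-binding protein, was at 110 and 84.9 FPKM in mutant libraries and at 97.2 and 109 FPKM in control libraries. The Tagln locus overlaps Pcsk7, which was listed at 0 in mutant replicate 1 and at 13.95 FPKM in mutant replicate 2, against 15.3 and 10.6 FPKM in control libraries, so reads may be split between these genes. Myh11, the smooth muscle myosin heavy chain, was at 18.1 and 9.34 FPKM in mutant libraries and at 15.4 and 11.6 FPKM in control libraries. Cnn1, the actin-binding protein calponin, was at 14.8 and 7.84 FPKM in mutant libraries and at 12.8 and 10.1 FPKM in control libraries.

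All 5 contractile genes were highest in mutant replicate 1, and Acta2, Tagln, Myh11 and Cnn1 were lowest in mutant replicate 2. The ratio of replicate 1 to replicate 2 was 1.93 in mutant and 1.33 in control libraries for Myh11, and 1.89 in mutant and 1.27 in control libraries for Cnn1. Des (desmin), an intermediate filament protein of muscle and mesangium, moved little, with ratios of 1.08 in mutant and 1.04 in control libraries. In the list of other contractile smooth muscle genes, 4 of 17 tested were highest in mutant replicate 1, beside 20.98% of all genes tested. Control replicate 1 was highest for 10 of the 17, beside 27.9%. The 4 included Actg2 (18.1 and 5.95 FPKM in mutant, 11.5 and 5.4 in control libraries) and Myl9. The 10 included Tpm2 (50.7 and 46.1 FPKM in mutant, 82.0 and 46.7 in control libraries) and Smtn (54.9 and 49.1 in mutant, 63.2 and 55.7 in control libraries). Mylk was highest in mutant replicate 2, at 83.3 FPKM. These genes were named after their values were seen. The list also holds genes that are not contractile proteins, such as Srf, highest in control replicate 1. The order of the 5 members was therefore not that of this list as a whole. Markers of the urothelium, the lining of the renal pelvis and ureter, were also high in mutant replicate 1. The summed level of 6 urothelial markers was 141 and 86.9 FPKM in mutant libraries and 97.0 and 78.6 FPKM in control libraries, and all 5 tested markers were highest in mutant replicate 1. The urothelial sum was lowest in control replicate 2, whereas the sum of the 5 contractile genes was 255 and 192 FPKM in mutant libraries and 228 and 235 FPKM in control libraries, lowest in mutant replicate 2. The part of the urothelium in the contractile values, and that of sex, which coincides with the replicate number, was not tested.

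No promoter was listed for Tagln or Myh11 in the promoter set used. The upstream sequences shown are those of the other contractile members, Acta2, Cnn1 and Des. They are the 250 bases before the transcription start in RefSeq, build GRCm38.p6, which is not the build of the deposited tables. The motif searched was the CArG box, the site of serum response factor that drives many contractile genes, with at most 1 letter off, which covers both strands because the pattern is its own reverse complement. Capitals mark the matches. The windows are Acta2 (chr19:34255374-34255623, minus strand), Cnn1 (chr9:22099003-22099252, plus strand) and Des (chr1:75360042-75360291, plus strand).
Acta2: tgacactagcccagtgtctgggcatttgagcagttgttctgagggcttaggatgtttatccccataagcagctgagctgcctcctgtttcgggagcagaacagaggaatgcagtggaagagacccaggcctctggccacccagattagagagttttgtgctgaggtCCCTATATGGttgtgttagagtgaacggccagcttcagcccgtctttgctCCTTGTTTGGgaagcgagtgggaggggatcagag
Cnn1: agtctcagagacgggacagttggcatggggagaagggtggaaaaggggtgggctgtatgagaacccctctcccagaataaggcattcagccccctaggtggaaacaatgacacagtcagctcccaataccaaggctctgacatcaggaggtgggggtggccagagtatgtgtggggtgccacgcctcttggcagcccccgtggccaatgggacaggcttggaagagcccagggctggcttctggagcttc
Des: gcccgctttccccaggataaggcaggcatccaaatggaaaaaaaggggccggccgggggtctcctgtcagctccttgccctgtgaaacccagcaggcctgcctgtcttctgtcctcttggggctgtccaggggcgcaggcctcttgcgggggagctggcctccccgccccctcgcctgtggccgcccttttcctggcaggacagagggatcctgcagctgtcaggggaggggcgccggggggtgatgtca
Acta2 held 2 matches, which begin 84 and 34 bases before the start, and the windows of Cnn1 and Des held none. Of all 32851 promoters listed there, 18.6% held at least 1 such match and 2.96% held 2 or more. Promoters were found for 18 of the 31 member symbols, and 5 of these held a match. A match or its lack describes these letters only.

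**Figure D3:**
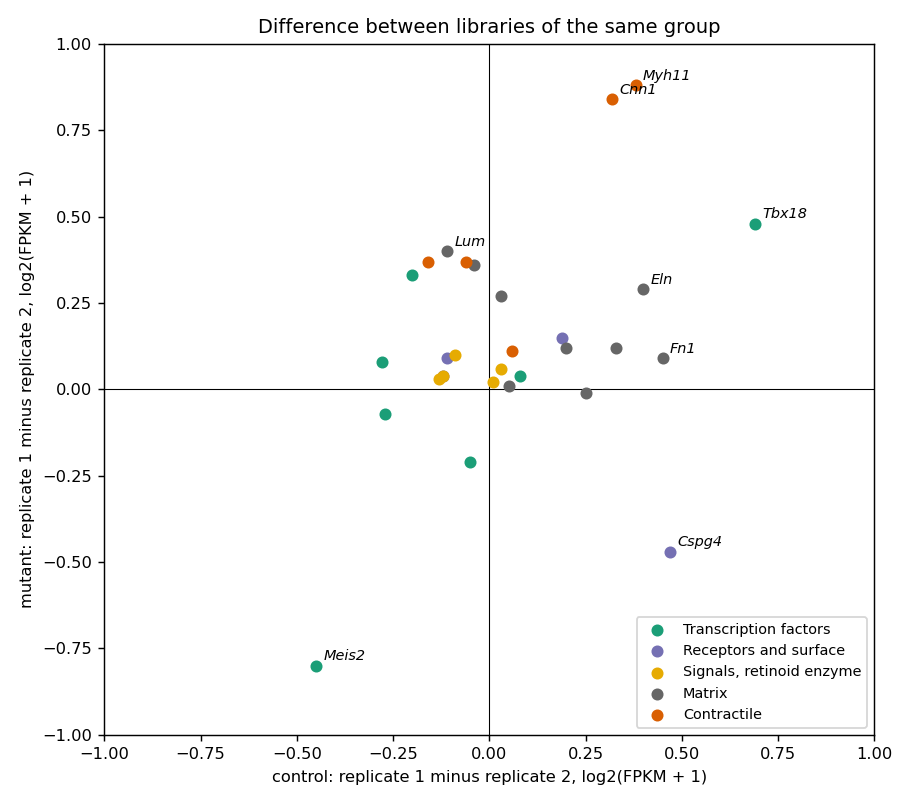
Difference between replicate 1 and replicate 2 on the log2(FPKM + 1) scale, in mutant libraries (vertical) and in control libraries (horizontal), 1 point a gene, coloured by role. Myh11 (0.88 in mutant, 0.38 in control) and Cnn1 (0.84 and 0.32) lie high on the right, Meis2 (-0.80 and -0.45) low on the left, and the secreted signals lie near the origin.

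Other genes of stromal pathways, from lists chosen with earlier results of these data known, also held 0 genes past the threshold, in each of 8 lists. Of all genes tested, 0.158% passed, so a count of 0 in lists of this size is near the background. Among 17 tested contractile genes outside the set, 5 changes were positive and 12 negative, with a median of -0.09. The most abundant were Tpm1 (183 and 168 FPKM in mutant, 165 and 183 in control libraries) and the myosin light chain gene Myl9 (163 and 131 in mutant, 151 and 153 in control libraries). Among 15 tested genes of mesangium, pericytes and juxtaglomerular cells the median was -0.08. Its most abundant genes were Plvap, which is also endothelial (74.5 and 72.2 FPKM in mutant, 87.9 and 76.7 in control libraries), and Anpep, which is also a brush border peptidase (62.2 and 57.0 in mutant, 94.0 and 61.5 in control libraries). The joint row of the renin genes Ren1 and Ren2 held 145 and 131 FPKM in mutant libraries and 137 and 151 in control libraries.

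The 19 tested genes of stromal transcription and signalling had a median of 0.00. Tcf21, a helix-loop-helix factor of stroma and podocytes, was at 154 and 138 FPKM in mutant libraries and at 137 and 152 in control libraries. The chemokine gene Cxcl12 was at 107 and 109 FPKM in mutant libraries and at 101 and 115 in control libraries. Igf1, a growth factor chosen here after its values were seen, was at 8.17 and 8.17 FPKM in mutant libraries and at 5.06 and 5.82 in control libraries (log2 change 0.51, SE 0.14, limma adjusted p = 0.50).

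Of the 4 ligands of the PDGF receptors, Pdgfd showed the largest difference. Pdgfd, which signals through the receptor encoded by Pdgfrb, was at 33.0 and 31.7 FPKM in mutant libraries and at 18.6 and 16.8 FPKM in control libraries. Its log2 change of 0.84 (SE 0.10, lower 95% bound 0.58) had an unadjusted p of 6.28e-04 and an adjusted p of 0.10, short of the threshold. Pdgfc was at 25.9 and 24.0 FPKM in mutant libraries and at 19.97 and 20.9 in control libraries (adjusted p = 0.65). Pdgfa, at 49.5 and 51.2 FPKM in mutant and 51.1 and 50.9 in control libraries, and Pdgfb, at 23.3 and 21.1 FPKM in mutant and 22.5 and 19.1 in control libraries, had overlapping groups.

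Genes of retinoic acid synthesis, breakdown and reception had 6 positive and 6 negative changes among 12 tested, with a median of 0.00. Aldh1a1, a retinaldehyde dehydrogenase chosen here after its values were seen, was at 11.6 and 11.6 FPKM in mutant libraries and at 7.17 and 6.66 in control libraries (log2 change 0.67, SE 0.12, adjusted p = 0.25). Aldh1a3, the sister enzyme, was at 46.4 and 47.9 FPKM in mutant libraries and at 62.8 and 44.3 in control libraries. Crabp2, which encodes a retinoic acid binding protein, was at 39.8 and 47.8 FPKM in mutant libraries and at 33.9 and 41.7 in control libraries, with overlapping groups.

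In the elastic fibre and microfibril list 13 of 14 changes were negative, with a median of -0.11, against 0.02 over all genes. Mfap2, a microfibril component, was at 105 and 98.4 FPKM in mutant libraries and at 106 and 107 in control libraries, and Efemp2 (fibulin 4) was at 82.1 and 82.3 in mutant libraries and at 82.0 and 84.5 in control libraries. Mfap5, another microfibril component named after its values were seen, was at 19.4 and 21.1 FPKM in mutant libraries and at 18.3 and 47.7 in control libraries, with control replicate 2 above the other 3 libraries. Control replicate 1 was the highest library for 8 of the 14 genes of the elastic fibre list, beside 27.9% of all genes tested. Ltbp4, also named after its values were seen, was at 47.0 and 43.2 FPKM in mutant and 67.6 and 53.55 in control libraries. Its log2 change was -0.41 (SE 0.14, limma adjusted p = 0.625). The 16 tested proteoglycan and matricellular genes had a median of -0.03, with Sparc at 138 and 128 FPKM in mutant libraries and at 142 and 133 in control libraries, and Spp1 (osteopontin) at 87.3 and 84.2 in mutant libraries and at 92.4 and 94.9 in control libraries. Cyr61, a matricellular gene named after its values were seen, was at 35.8 and 42.1 FPKM in mutant and 51.5 and 55.6 in control libraries. The log2 change of Cyr61 was -0.45 (SE 0.11, limma adjusted p = 0.41). Hapln1 of the same list, also named after its values were seen, went the other way. It was at 5.05 and 4.62 FPKM in mutant and 2.94 and 3.45 in control libraries (log2 change 0.48, SE 0.16, limma adjusted p = 0.63). This list held 7 positive and 9 negative changes. In the TGF-beta list 10 of 12 changes were negative, with a median of -0.14, against 0.02 over all genes. Beside 27.9% of all genes tested, control replicate 1 was the highest library for 8 of the 12. The part of that library in the direction of these 2 lists was not tested. In the TGF-beta list Eng (endoglin), also an endothelial gene, was at 42.2 and 36.5 FPKM in mutant libraries and at 47.7 and 45.9 in control libraries. Smad4 was at 40.9 and 40.3 in mutant libraries and at 43.1 and 40.1 in control libraries.

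**Figure D4:**
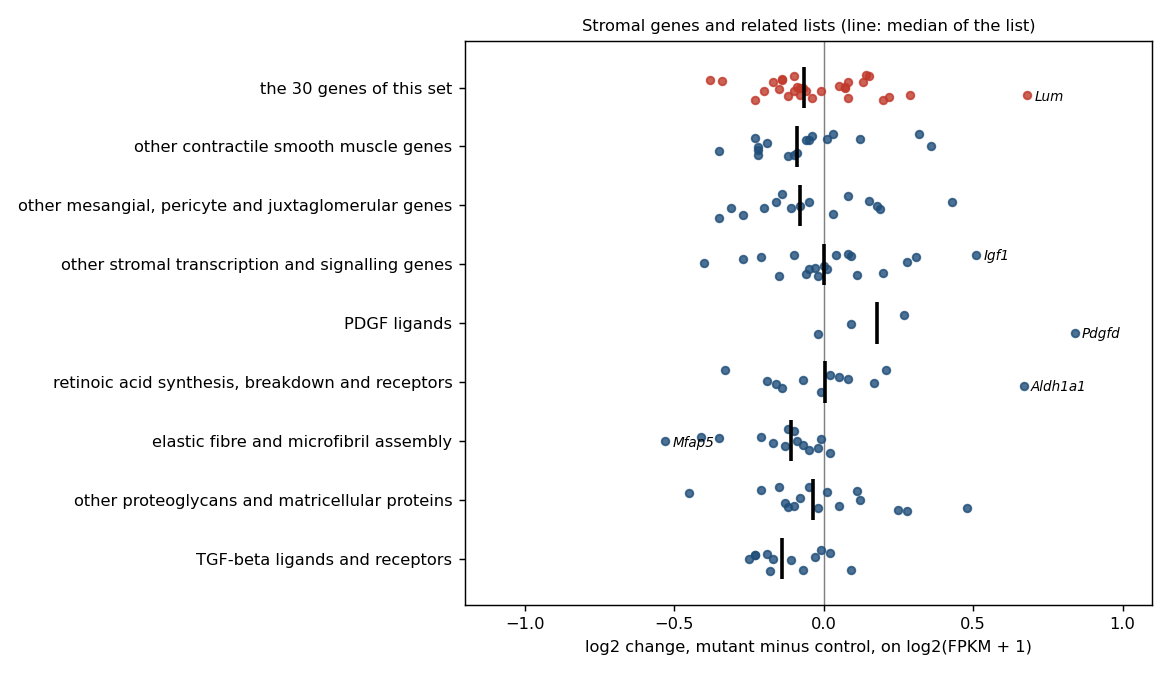
Log2 change, mutant minus control, on the log2(FPKM + 1) scale for the 30 genes (red) and for the related lists (blue), 1 point a tested gene, with a black line at the median of each list. Medians lie between -0.14 and 0.18, and Lum, Pdgfd, Aldh1a1, Igf1 and Mfap5 lie beyond 0.5 in either direction.

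Apart from the proximal tubule list, no list of markers of other cell types held a gene past the threshold, beside 0.158% of all genes tested. A count of 0 in lists of this size is near that share. The endothelial list (8 genes, median -0.01), podocyte list (6, median -0.03), nephron progenitor list (8, median 0.08), ureteric and collecting duct list (7 tested, median -0.06), urothelial list (5 tested, median 0.30), leukocyte list (7, median 0.07) and erythroid list (5 tested, median 0.23) each held 0 such genes. The ureteric and collecting duct list held 2 positive and 5 negative changes. The largest was that of Calb1, at 117 and 67.1 FPKM in mutant and 48.9 and 59.5 in control libraries (log2 change 0.70, limma adjusted p = 0.73). The erythroid list held 3 positive and 2 negative changes. Hbb-y was at 0.66 and 1.72 FPKM in mutant and 3.96 and 4.55 in control libraries (log2 change -1.30, limma adjusted p = 0.36). Alas2 was at 26.55 and 27.6 FPKM in mutant and 16.9 and 20.2 in control libraries (0.53, limma adjusted p = 0.37). Summed levels of the endothelial list were 428 and 440 FPKM in mutant libraries and 431 and 432 FPKM in control libraries. Adrenal cortex markers (1 tested) summed to 1.76 and 1.98 FPKM in mutant libraries and to 1.90 and 2.57 in control libraries. The steroid synthesis genes Cyp11b1, Cyp11b2 and Cyp21a1 were listed at 0 in all 4 libraries. Cyp11a1, also of steroid synthesis, was at 0.35 and 0.68 FPKM in mutant libraries and at 0.69 and 0.60 in control libraries. Star was at 0.63 FPKM in control replicate 2 and at 0 elsewhere. The most abundant marker was Mc2r, at 1.36 and 1.26 FPKM in mutant libraries and at 1.16 and 1.24 in control libraries. Skeletal muscle markers (3 tested) summed to 11.4 and 11.2 FPKM in mutant libraries and to 13.2 and 10.5 in control libraries, with the myogenic gene Myod1 listed at 0 throughout. Most of that sum was Tnnt3 and Actn3. Tnnt3 was at 3.71 and 4.62 FPKM in mutant libraries and at 5.84 and 4.46 in control libraries. Actn3 was at 5.19 and 5.74 FPKM in mutant libraries and at 3.90 and 4.04 in control libraries. Nerve and Schwann cell markers (3 tested) summed to 6.22 and 4.85 FPKM in mutant libraries and to 4.46 and 4.66 in control libraries. The adipocyte and mesothelium list (5 tested, median 0.01) summed to 291 and 251 FPKM in mutant libraries and to 251 and 290 in control libraries. Most of that was Fabp4, a lipid carrier also made by endothelium, at 207 and 182 FPKM in mutant libraries and at 179 and 207 in control libraries, and Wt1, also a podocyte gene, at 64.8 and 55.2 in mutant libraries and at 58.6 and 69.2 in control libraries. The adipocyte genes Adipoq and Plin1 were listed at 0 in all 4 libraries.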

How the data were processed

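Kidney RNA at E18.5 was poly(A)-selected, per the labels' protocols; strand-specific preparation is not mentioned. Each deposited table holds the FPKM values of 1 library with intervals, computed by the authors. Cufflinks 2.1.1, TopHat2 2.0.11, SAMtools 0.1.19 and Bowtie 1.0.0 are named, with build mm9, in the submitters' processing notes. Their options and the annotation were not given in the sources used here. Loci were assembled in each library separately, so boundaries and FPKM can shift: 19 of the 30 genes had the same locus in all 4 tables, and 3 overlapped another named locus with a value above 0.

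Rows were joined by symbol and summed where a symbol had several rows (156 genes); 22761 names were in all 4 tables, and 99 with a row not marked OK were left out. The 13287 genes that reached 1 FPKM in 2 or more libraries were fitted as log2(FPKM + 1), which understates changes of low genes, with limma 3.58.1 in R 4.3.3 (genotype as the only covariate, prior variance following the mean) and Benjamini-Hochberg adjustment over all of them at 0.05. Groups came from the sample titles. The fit was tested on simulated data. FPKM tables hold no counts, so the depth is unknown and no counting interval was computed here. With 2 libraries a group the precision is limited. An exact permutation test of 2 against 2 cannot reach 0.05.

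All members are named; other lists are represented by members past the threshold or else their 2 most abundant genes, and exceptions are stated. Cell-type lists depart from this rule: they are given by counts, medians or sums, with genes at 0 and a few others named after their values were seen. The members and lists were chosen with earlier results of these data known. The 15 alternatives and 1 added after seeing the data (the joint Pdgfra row) are given under the dependence on processing. 1 gene of the retinoic acid list is not reported here.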

Additional observations from a re-analysis of the deposited data

How the results depend on the processing

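The count of stromal genes past the threshold was 0 under all 15 alternatives and with the joint Pdgfra row counted as a member, with between 1 and 5 genes at an unadjusted p under 0.05. The median log2 change over members was -0.07, and leaving out each library in turn gave -0.15 to 0.05, the positive value without mutant replicate 2. The count of all genes called, 21, was 10 without a filter on low values, 11 without the variance trend, 10 without genes at 0, 6 with the replicate number as a block and 79 at a threshold of 0.10. Leaving out a library gave 0 to 21; limma called 0 without control replicate 1 and 0 without control replicate 2, with 1014 and 2295 at an unadjusted p under 0.05. The labels do not pair the samples by number, but the number coincides with sex in both groups; replicate differences of the 2 groups correlated at 0.15 across genes, and 14 of 30 members were higher in replicate 1 of both groups, beside 23.3% of all genes. No member passed with the block. No member changed direction under the other settings, but leaving out a library turned the sign of 12 changes, that of Meis2 (0.29) among them. The ranges were -0.09 to 0.24 for Meis1, -0.11 to 0.69 for Meis2, -0.01 to 0.26 for Alx1, -0.31 to 0.16 for Cspg4, 0.00 to 0.11 for Aldh1a2, -0.19 to 0.17 for Postn, -0.31 to 0.02 for Fbln2, -0.34 to 0.06 for Eln, -0.25 to 0.11 for Acta2, -0.27 to 0.10 for Tagln, -0.48 to 0.40 for Myh11 and -0.48 to 0.35 for Cnn1. Ntn1 stayed negative (-0.37 to -0.30) and Lum positive (0.47 to 0.88) whichever library was left out, and neither passed. Where a single library remained for a genotype, it was assumed to vary like the other genotype. The cause of these shifts was not tested. Scaling moved the median of all genes by at most 0.02.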
